A study of Homo sapiens with 24 samples.

Results

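The aryl hydrocarbon receptor pathway is described here by 5 genes of the read-count table, chosen by symbol, of 14493 genes in all: AHR, the receptor, ARNT, its partner, and the target genes CYP1A1, CYP1B1, and TIPARP. All 5 were found in the table. The 24 RNA-seq libraries came from SKBr3 cells, an established HER2-amplified human breast cancer line, in 8 groups of 3 replicates. Untreated cells were collected at day 0, when they were proliferating, and at day 7. Therapy-induced senescent (TIS) cells had received an inducer with a refeed on day 3 and were collected on day 7. The labels of the untreated cells name no refeed, and whether they were refed is not given. The part of the refeed in the differences between TIS and untreated cells was not tested. The inducers were the acetyl-CoA carboxylase inhibitor ND-646 at 250 nmol/L, the fatty acid synthase inhibitor TVB-3166 at 250 nmol/L, the Aurora A kinase inhibitor alisertib at 500 nmol/L, the anthracycline doxorubicin at 10 nmol/L, the DNA-cleaving agent bleomycin at 10 μmol/L, and palbociclib (Palboclib in the labels), which blocks the cell-cycle kinases CDK4 and CDK6, at 1 μmol/L. Nothing in the labels says that replicates were separate cultures, so p-values measure the spread between these libraries, which may be technical.

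AHR is a ligand-activated transcription factor that waits in the cytosol in a complex with HSP90 and the co-chaperone p23. When it binds a ligand such as a dioxin, a polycyclic hydrocarbon, or a tryptophan metabolite, it enters the nucleus, pairs with ARNT, and binds DNA at xenobiotic response elements. CYP1A1 and CYP1B1 are cytochrome P450 enzymes that oxidise many of these ligands, and CYP1A1 is widely used as a readout of receptor activity, whereas TIPARP is an ADP-ribosyltransferase and AHRR a repressor that both act back on the receptor. ARNT also pairs with the hypoxia-inducible factors.

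Total counts ranged from 29405121 to 44316330 per library. Levels are given in CPM, read counts scaled to the size of each library with TMM factors, with the SD of 3 libraries, and levels of different genes are compared only per kilobase of exon. Of 10 luminal markers 9 were in the table, CDH1 was not, and the summed level of the 9 ranged from 10116 to 20369 CPM. Among the markers of other cell types, 1 of 3 for basal cells, 1 of 5 for fibroblasts, 1 of 4 for leukocytes, and 2 of 3 for endothelium were listed. The leukocyte marker, CD68, was at 3.70 to 7.33 CPM in untreated libraries and at 25.6 to 56.4 CPM in ND-646, TVB-3166, and bleomycin libraries. The endothelial markers, VWF and CDH5, summed to 2.88 to 7.26 CPM in untreated libraries and to 27.3 to 47.8 CPM in bleomycin, doxorubicin, and palbociclib libraries. The part of these cell types in the results was not tested. A library stood apart from the others of its group. In untreated day 0 replicate 1, 8.01% of counts were from the 13 mitochondrial messenger RNAs, against 1.22% and 1.51% in replicates 2 and 3. Levels and fold changes of CYP1A1 and CYP1B1 at or against day 0 are given with and without this library. Untreated day 7 replicate 2 had the most CYP1A1 in its group, and fold changes of CYP1A1 that use it are also given without it.

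On GRCh37, with the GENCODE annotation lifted to that build, AHR lies at chr7:16955983-17385776 on the plus strand, ARNT at chr1:150782189-150849184 on the minus strand, CYP1A1 at chr15:75011883-75017877 on the minus strand, CYP1B1 at chr2:38294116-38337044 on the minus strand, and TIPARP at chr3:156391024-156424559 on the plus strand. The 1500 bases before the start of the main transcript of each gene were searched on both strands for the letters TNGCGTG, the form of the xenobiotic response element that AHR and ARNT bind. CYP1A1 held 5 matches, CYP1B1 4, and ARNT 2, whereas AHR and TIPARP held 0. Of 19812 genes searched in the same way, 26.5% held at least 1 match, 0.02% held as many as CYP1A1, and 0.06% held as many as CYP1B1. The richest 200 bases of both CYP1 genes are shown because these genes had the widest range of levels among the 5. Sequences read 5′ to 3′ on the strand of the gene and capitals mark the matches, which read TNGCGTG on that strand or CACGCNA where the match is on the other. A match is a run of letters and was not shown to be bound.
CYP1A1, chr15:75018731-75018930, 1061 to 862 bases before the start: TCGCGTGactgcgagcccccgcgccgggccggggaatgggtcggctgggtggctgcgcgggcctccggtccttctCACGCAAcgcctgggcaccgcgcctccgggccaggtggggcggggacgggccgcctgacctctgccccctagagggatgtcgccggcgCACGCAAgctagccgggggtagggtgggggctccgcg
CYP1B1, chr2:38304121-38304320, 1027 to 828 bases before the start: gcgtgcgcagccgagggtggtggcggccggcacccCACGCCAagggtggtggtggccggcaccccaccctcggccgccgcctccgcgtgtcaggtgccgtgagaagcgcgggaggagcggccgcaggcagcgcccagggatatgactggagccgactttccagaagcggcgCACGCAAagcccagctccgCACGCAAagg
The CYP1A1 stretch holds 3 matches, 1 on the strand of the gene and 2 on the other, and overlaps no annotated transcript. The CYP1B1 stretch holds 3 matches, all on the other strand, and overlaps transcripts of CYP1B1 and its antisense gene CYP1B1-AS1 but no exon of either.

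Across the 8 groups the 5 genes behaved differently. AHR was 1.42-fold to 2.17-fold higher in TIS cells than at day 0, the mean of ARNT stayed within 52.5 to 62.0 CPM, and the targets ranged more widely, from 41.7 to 128 CPM for TIPARP, from 156 to 1220.1 CPM for CYP1B1, and from 21.5 to 1801 CPM for CYP1A1. Without untreated day 0 replicate 1 the lower ends were 77.1 CPM for CYP1B1 and 1.51 CPM for CYP1A1. In an F-test over the 8 groups (edgeR's quasi-likelihood test), the adjusted p-value was 7.93e-08 for AHR, 2.67e-05 for CYP1B1, 1.83e-06 for TIPARP, and 0.23 for ARNT, and 81.6% of the 14078 genes tested were called. CYP1A1 was chosen for its measured levels and its spread between replicates, so its values are a description and carry no test.

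**Figure D1:**
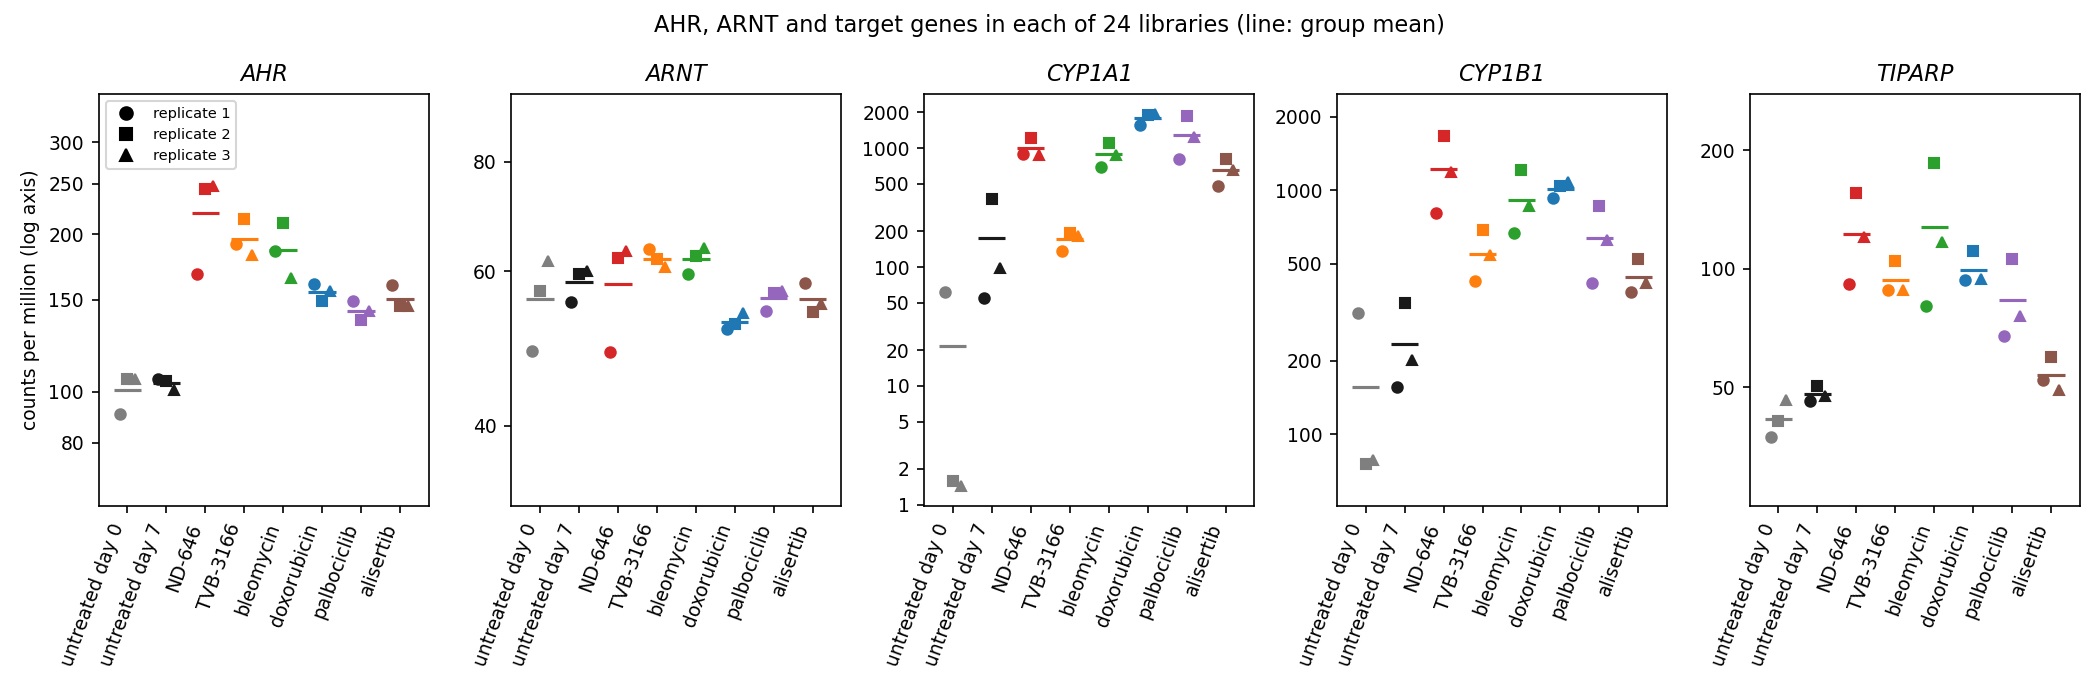
CPM on a log axis for AHR, ARNT, CYP1A1, CYP1B1, and TIPARP in each of 24 libraries, with the 3 replicates of a group as a circle, a square, and a triangle and the group mean as a line. CYP1A1 ran from 1.45 CPM in an untreated day 0 library to 1924 CPM in a doxorubicin library, whereas ARNT ran from 48.5 to 63.8 CPM.

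Of the 4 members tested, 3 (AHR, CYP1B1, and TIPARP) were called higher than in untreated day 0 cells in every TIS group at an adjusted p-value under 0.05, and ARNT in none. Among all genes tested, 19.1% were called higher with ND-646, 27.4% with TVB-3166, 24.1% with bleomycin, 23.7% with doxorubicin, 26.0% with palbociclib, and 17.7% with alisertib. Against untreated day 7 cells the same 3 members were called higher in 5 of 6 TIS groups, and AHR and CYP1B1 in alisertib cells. The share of all genes called higher against day 7 was 17.2% for ND-646, 25.4% for TVB-3166, 22.4% for bleomycin, 21.9% for doxorubicin, 22.0% for palbociclib, and 9.55% for alisertib. Besides the calls, 4 of the 5 members (all but ARNT) had no overlap of libraries between each TIS group and day 0, which held for 51.7% of all genes with ND-646, 62.6% with TVB-3166, 59.5% with bleomycin, 58.5% with doxorubicin, 62.3% with palbociclib, and 50.6% with alisertib. Against day 7 the shares of all genes without overlap were 50.8%, 59.4%, 57.0%, 54.1%, 54.6%, and 37.7% in the same order, and CYP1A1 with TVB-3166 and TIPARP with alisertib did overlap. Calls and gaps of this kind were thus common among all genes. Between untreated cells at day 7 and day 0, 0 of 4 members were called in edgeR, against 0.587% of all genes. There were also 0 members at a raw p-value under 0.05 and 0 with DESeq2, which called 1132 genes. The TIS groups share both sets of control libraries, so their calls are not independent of each other.

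**Figure D2:**
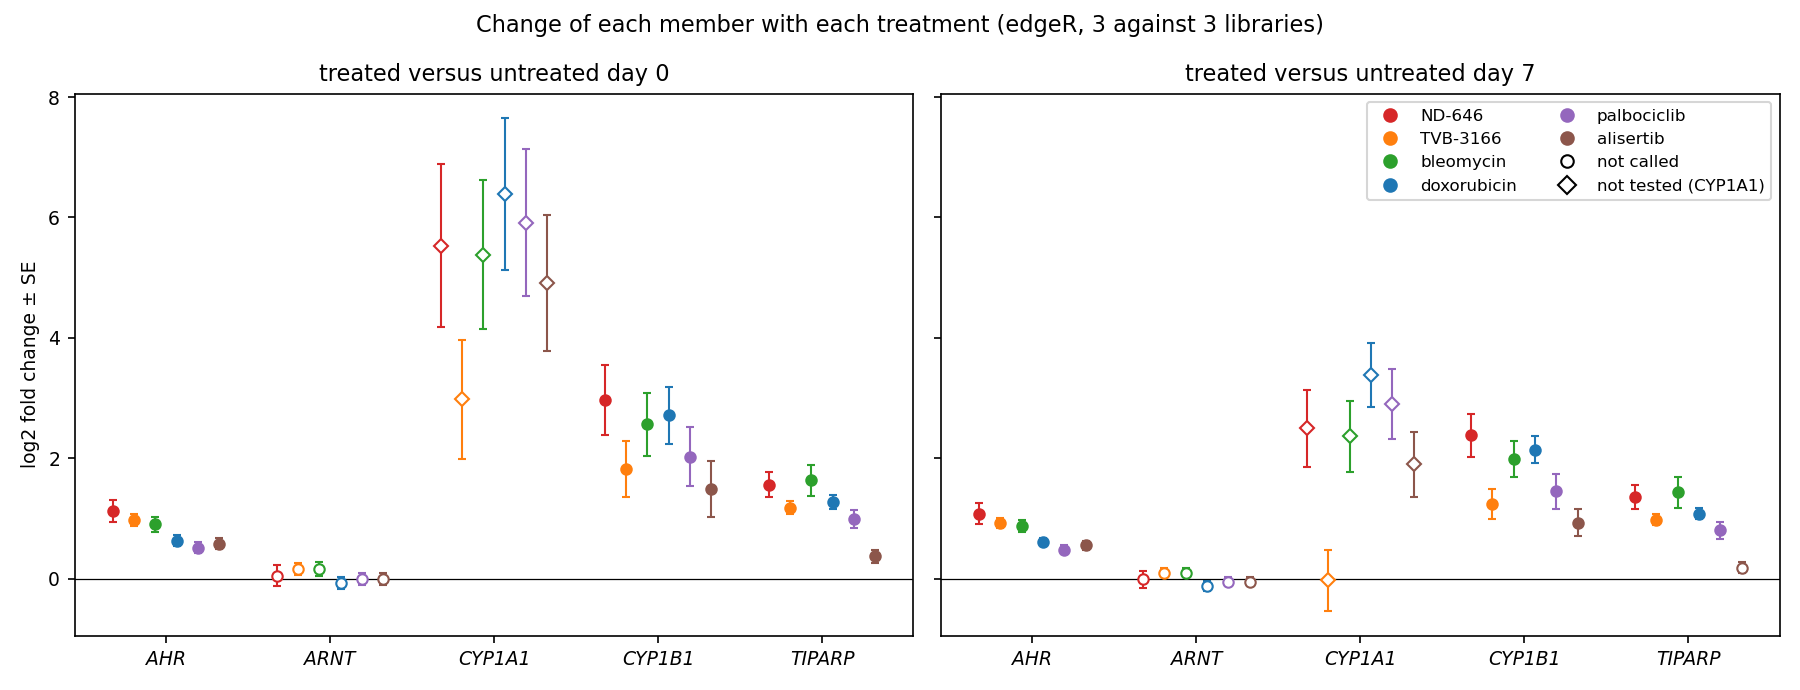
Log2 fold change of each gene with each TIS inducer, with its standard error, against untreated day 0 cells on the left and untreated day 7 cells on the right. Filled circles passed an adjusted p-value of 0.05, open circles did not, and diamonds are CYP1A1, which was not tested. ARNT lies between -0.12 and 0.16, and CYP1A1 in TVB-3166 cells lies at 2.98 against day 0 and at -0.03 against day 7.

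AHR, the receptor, rose in all 6 TIS groups against both controls. Its level was 90.6, 106, and 106 CPM in the day 0 libraries and 106, 105, and 101 CPM in the day 7 libraries. It was 168, 244, and 248 CPM with ND-646, 192, 214, and 183 CPM with TVB-3166, and 186, 210.5, and 165 CPM with bleomycin. It was 161, 149, and 156 CPM with doxorubicin, 149, 137, and 143 CPM with palbociclib, and 160, 146, and 146 CPM with alisertib. All 18 TIS libraries were above all 6 untreated libraries, and the TIS groups fell into a higher set of ND-646, TVB-3166, and bleomycin and a lower set of doxorubicin, alisertib, and palbociclib whose libraries did not overlap. Within each of these sets neighbouring groups overlapped. Against day 0 the log2 fold change was 1.12 ± 0.18 (SE) with ND-646 (adjusted p = 0.00187), 0.97 ± 0.10 with TVB-3166 (2.02e-05), and 0.90 ± 0.12 with bleomycin (0.000395). It was 0.63 ± 0.09 with doxorubicin, 0.58 ± 0.09 with alisertib, and 0.51 ± 0.09 with palbociclib, with adjusted p-values of 0.000509, 0.00129, and 0.00119. Against day 7 it ran from 0.48 with palbociclib to 1.08 with ND-646, and untreated day 7 cells differed from day 0 by 0.05 ± 0.09 (adjusted p = 0.769). Counts are relative to the total of a library, so a larger share of the RNA and more RNA per cell cannot be told apart. The calls held when each library was left out. At the study's own threshold, a fold of 2 with a raw p-value under 0.05, AHR passed only with ND-646.

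ARNT, which AHR needs to bind DNA, did not differ detectably between the groups with all 24 libraries. Without ND-646 replicate 1, all 4 tested members passed the F-test over the 8 groups, ARNT among them. Its means lay between 52.5 ± 1.15 CPM in doxorubicin cells and 62.0 ± 1.47 CPM in TVB-3166 cells, a ratio of 1.18, and each group overlapped its neighbour in the order of means. It was called in 0 of 14 comparisons, with 0 at a raw p-value under 0.05 and 0 with DESeq2, and the log2 fold changes against day 0 ran from -0.07 to 0.16 with standard errors of 0.1 to 0.17. Against day 7 they ran from -0.12 to 0.10, and the libraries of doxorubicin lay below and those of TVB-3166 above all day 7 libraries. The lowest libraries were ND-646 replicate 1 at 48.5 CPM and untreated day 0 replicate 1 at 48.6 CPM.

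CYP1A1 had the widest range of the 5 genes, and its lowest and highest libraries differed 1326-fold. The day 0 libraries had 2420, 49, and 49 reads, or 61.5, 1.57, and 1.45 CPM. The day 7 libraries had 2456, 12994, and 3332 reads, or 54.4, 376, and 99.0 CPM. Replicate 1 was the high library at day 0 and the low library at day 7. CYP1A1 was at 137, 194, and 184 CPM with TVB-3166, all inside the range of the day 7 libraries. It was at 888, 1229.6, and 884 CPM with ND-646, at 699, 1103, and 870 CPM with bleomycin, and at 479.7, 819, and 657 CPM with alisertib. With palbociclib it was at 804, 1862, and 1244 CPM, and with doxorubicin at 1567, 1911, and 1924 CPM. All 15 libraries of these 5 TIS groups were above every untreated library and every TVB-3166 library. From low to high the group means were 21.5 ± 34.7 CPM at day 0, 172 ± 30.7 with TVB-3166, 177 ± 174 at day 7, 652 ± 169.5 with alisertib, 891 ± 203 with bleomycin, 1001 ± 198 with ND-646, 1303 ± 531 with palbociclib, and 1801 ± 203 with doxorubicin. From alisertib to doxorubicin, each group overlapped the next.

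The fitted log2 fold changes of CYP1A1 against day 0 were 6.39 with doxorubicin, 5.91 with palbociclib, 5.53 with ND-646, 5.38 with bleomycin, 4.91 with alisertib, 2.98 with TVB-3166, and 3.04 in untreated day 7 cells. Standard errors were 0.99 to 1.35, and all of these values hang on untreated day 0 replicate 1. Without that library they were 10.22, 9.76, 9.36, 9.20, 8.76, 6.83, and 6.88 in the same order. Against day 7 the values were 3.38 with doxorubicin, 2.90 with palbociclib, 2.5 with ND-646, 2.36 with bleomycin, and 1.90 with alisertib, and they were 4.56, 4.10, 3.70, 3.55, and 3.10 without untreated day 7 replicate 2, the high library. Untreated day 7 against day 0 was at 1.82 without untreated day 7 replicate 2. For TVB-3166 against day 7 the value was -0.03 ± 0.51, and it ran from -0.47 to 1.17 as single libraries were left out. Directly compared, CYP1A1 was lower with TVB-3166 than with ND-646 by a log2 fold change of -2.54 ± 0.21, or 5.82-fold, and the libraries did not overlap.

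The gap of untreated day 0 replicate 1 over the higher of replicates 2 and 3 was 5.24 on the log2 scale for CYP1A1. CYP1A1 was chosen for its spread between replicates, so its gap is given without a rank. For CYP1B1 the gap was 2.0, which ranked 23 of 12462 genes with at least 10 counts in every library. The median over all genes was -0.08. Among genes other than CYP1A1, which was not ranked, the largest gaps were those of TRNE, ND2, ND5, and TRNL1, all mitochondrial, at 3.15, 2.93, 2.77, and 2.68. AHR, ARNT, and TIPARP had gaps of -0.23, -0.34, and -0.31 in the same library. The share of mitochondrial messenger RNAs, 8.01% in this library, ranged from 1.75% in a palbociclib library to 10% in a bleomycin library among the TIS libraries, and its part in the CYP1A1 values was not tested.

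CYP1B1, the other CYP1 enzyme, rose in all 6 TIS groups against both controls. Its level was 315, 75.7, and 78.5 CPM at day 0 and 156, 345, and 201 CPM at day 7. It was 808, 1662, and 1191 CPM with ND-646, 424, 686, and 540.5 CPM with TVB-3166, and 668, 1208, and 863 CPM with bleomycin. It was 925, 1036, and 1081 CPM with doxorubicin, 416, 863, and 624 CPM with palbociclib, and 383, 524, and 417 CPM with alisertib. Every TIS library was above every untreated library, the untreated groups overlapped each other, and from alisertib upwards each group overlapped the next. The group means ran from 156 ± 137 CPM at day 0 and 234 ± 98.9 CPM at day 7 to 441 ± 73.5 CPM with alisertib, 550.4 ± 131 with TVB-3166, 634 ± 224 with palbociclib, 913 ± 273 with bleomycin, 1014 ± 80.4 with doxorubicin, and 1220.1 ± 428 with ND-646. Its antisense gene CYP1B1-AS1 had 12 to 52 reads per library, against 2367 to 46489 for CYP1B1.

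Against day 0 the log2 fold change of CYP1B1 was 2.96 ± 0.58 with ND-646 (adjusted p = 0.0041), 2.71 ± 0.48 with doxorubicin (0.00136), and 2.56 ± 0.52 with bleomycin (0.00288). It was 2.02 ± 0.49 with palbociclib (adjusted p = 0.00554), 1.82 ± 0.46 with TVB-3166 (0.00582), and 1.49 ± 0.46 with alisertib (0.0263). Without untreated day 0 replicate 1 the values were 3.98, 3.72, 3.57, 3.05, 2.84, and 2.53 in the same order. Against day 7 the values were 2.38 with ND-646, 2.14 with doxorubicin, 1.98 with bleomycin, 1.45 with palbociclib, 1.24 with TVB-3166, and 0.93 with alisertib, with adjusted p-values of 0.0017, 1.89e-05, 0.000926, 0.00196, 0.00179, and 0.0195. Untreated day 7 cells were at 0.59 ± 0.49 against day 0 (adjusted p = 0.483), and at 1.61 without untreated day 0 replicate 1 (adjusted p = 0.0265). The alisertib calls were the weakest. Against day 0 the adjusted p-value was 0.0894 with DESeq2, and 0.0854, 0.0674, 0.0947, and 0.0760 without alisertib replicates 2 and 3 and day 0 replicates 2 and 3. Against day 7 it was 0.0594 with DESeq2, 0.19 with all 24 libraries in 1 fit, and 0.0756, 0.0596, and 0.0799 without alisertib replicates 2 and 3 and day 7 replicate 3.

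TIPARP, the ADP-ribosyltransferase that acts back on AHR, rose in 5 TIS groups against both controls and least with alisertib. Its level was 37.4, 41.1, and 46.4 CPM at day 0, 46.3, 50.5, and 47.5 CPM at day 7, and 52.2, 59.9, and 49.3 CPM with alisertib. It was 67.4, 106, and 76.1 CPM with palbociclib, 88.5, 105, and 88.4 CPM with TVB-3166, and 93.5, 111, and 94.5 CPM with doxorubicin. It was 91.6, 156, and 120.4 CPM with ND-646 and 80.5, 186, and 117 CPM with bleomycin. The alisertib libraries overlapped those of day 7, which overlapped those of day 0, and the libraries of the other 5 TIS groups were above all of these and overlapped among themselves. Unlike CYP1A1 and CYP1B1, TIPARP was not high in untreated day 0 replicate 1, which had its lowest value. Against day 0 the log2 fold change was 1.63 ± 0.26 with bleomycin (adjusted p = 0.000829), 1.56 ± 0.21 with ND-646 (7e-04), 1.27 ± 0.11 with doxorubicin (3.34e-05), 1.18 ± 0.11 with TVB-3166 (9.24e-06), and 0.99 ± 0.15 with palbociclib (0.000365). With alisertib it was 0.37 ± 0.11 (adjusted p = 0.0265), and the adjusted p-value was 0.209 with all 24 libraries in 1 fit and 0.123 and 0.066 without alisertib replicate 2 and day 0 replicate 2. Against day 7 the values ran from 0.80 with palbociclib to 1.43 with bleomycin, and alisertib was at 0.18 ± 0.09 (adjusted p = 0.189).

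The inhibitors of fatty acid synthesis, ND-646 and TVB-3166, were given at the same dose and time and could be compared directly. Of the 4 members tested 0 passed in edgeR at an adjusted p-value under 0.05, against 0.717% of all genes. At a raw p-value under 0.05 there was 1 member, CYP1B1, and the share of all genes at that threshold is not given. CYP1B1 was also the 1 member called with DESeq2, which called 765 genes. CYP1B1 was at -1.15 ± 0.29 in TVB-3166 against ND-646 cells (adjusted p = 0.116), with no overlap of libraries, as for 24.2% of all genes. Same-numbered libraries of these groups deviated together, and with the replicate number as a block the value was -1.11 with an adjusted p-value of 0.0223. Without ND-646 replicate 1, the lowest library of that group for AHR, ARNT, CYP1B1, and TIPARP, the values were -1.37 for CYP1B1, -0.55 for TIPARP, and -0.32 for AHR, with adjusted p-values of 0.00251, 0.0186, and 0.0415. With all libraries AHR was at -0.16 ± 0.17 (adjusted p = 0.701), TIPARP at -0.38 ± 0.20 (0.421), and ARNT at 0.10 ± 0.14 (0.771).

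Per kilobase of exon, the balance of the CYP1 enzymes shifted between groups. CYP1A1 was at 0.350, 0.0371, and 0.0331 of the level of CYP1B1 in the day 0 libraries and at 0.625, 1.95, and 0.883 in the day 7 libraries. The ratio was 0.577, 0.507, and 0.610 with TVB-3166, 1.97, 1.33, and 1.33 with ND-646, and 1.88, 1.64, and 1.81 with bleomycin. It was 2.24, 2.80, and 2.82 with alisertib, 3.04, 3.31, and 3.19 with doxorubicin, and 3.47, 3.86, and 3.57 with palbociclib. TVB-3166 was thus the only TIS group with less CYP1A1 than CYP1B1 in all 3 libraries. Within 5 of 6 TIS groups, all but ND-646, the ratio varied less between libraries than the level of either gene. In palbociclib cells, for example, CYP1A1 differed 2.32-fold and CYP1B1 2.08-fold between libraries. In the same libraries the ratio went from 3.47 to 3.86. Mean levels per kilobase in doxorubicin cells were 536 for CYP1A1, 168 for CYP1B1, 20.8 for TIPARP, 19.3 for AHR, and 8.15 for ARNT. At day 0 they were 6.40 for CYP1A1, 26.0 for CYP1B1, 8.68 for TIPARP, 12.5 for AHR, and 8.64 for ARNT. Without day 0 replicate 1 they were 0.449 for CYP1A1, 12.8 for CYP1B1, 9.12 for TIPARP, 13.2 for AHR, and 9.19 for ARNT.

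**Figure D3:**
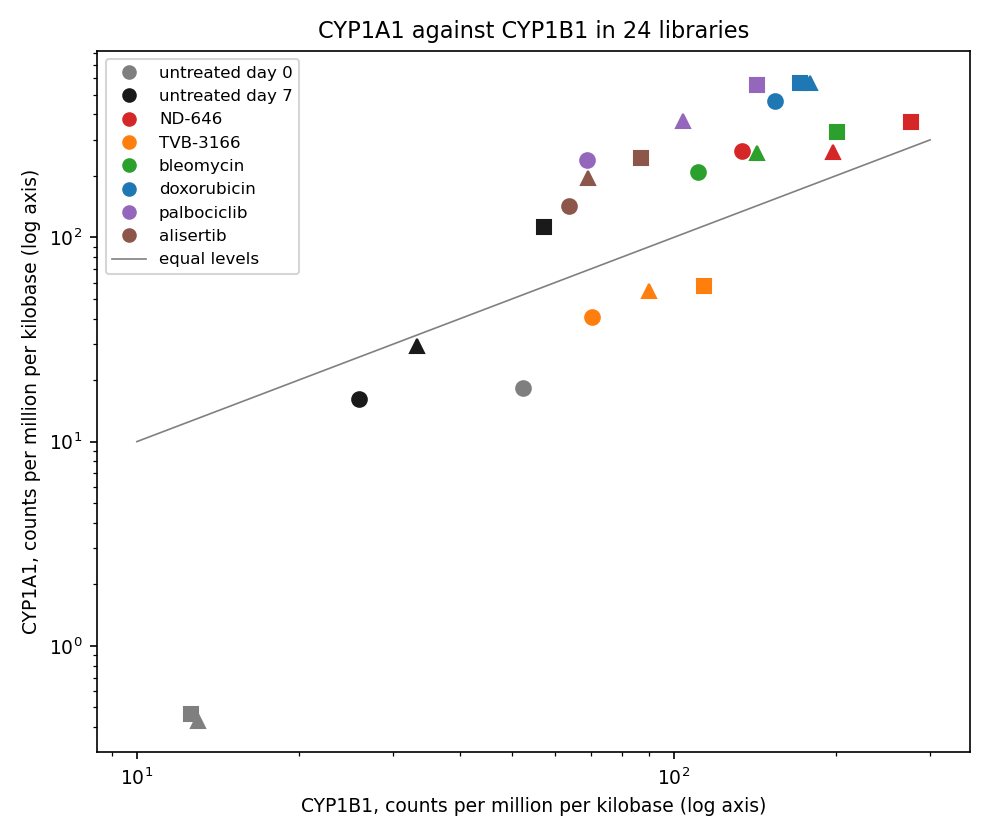
CYP1A1 against CYP1B1 in each of 24 libraries, both in CPM per kilobase of exon on log axes, coloured by group, with the 3 replicates as a circle, a square, and a triangle. The grey line marks equal levels. The TVB-3166 libraries lie below the line at ratios of 0.507 to 0.610, and day 0 replicates 2 and 3 lie far below at 0.0371 and 0.0331.

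Pooled over the groups, libraries of the same group differed in CYP1B1 more than in most genes. CYP1A1 was chosen for its spread, so its pooled SD is given without a rank. The pooled SD within groups on the log2 scale was 1.23 for CYP1A1 and 0.57 for CYP1B1, at the 98.7th percentile of 12462 genes for CYP1B1, against 0.30 for TIPARP, 0.15 for AHR, 0.11 for ARNT, and a median of 0.19 over all genes. The CYP1A1 spread was mainly that of the untreated groups, with an SD of 3.06 at day 0 and 1.43 at day 7. In the TIS groups it was 0.17 with doxorubicin to 0.61 with palbociclib. Single groups differed, and CYP1A1 with ND-646 was at the 50.1 percentile of all genes and CYP1B1 with doxorubicin at the 46.6 percentile. The library with the most CYP1A1 was also the library with the most CYP1B1 in 8 of 8 groups, and the lowest was shared in 6 of 8. Replicate 2 was the highest in 6 groups for CYP1A1 and CYP1B1, replicate 1 at day 0, and replicate 3 with doxorubicin. TIPARP was highest in replicate 2 in 7 of 8 groups, whereas AHR was highest in replicate 2 in 2 groups. What a replicate number stands for is not given in the labels.

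**Figure D4:**
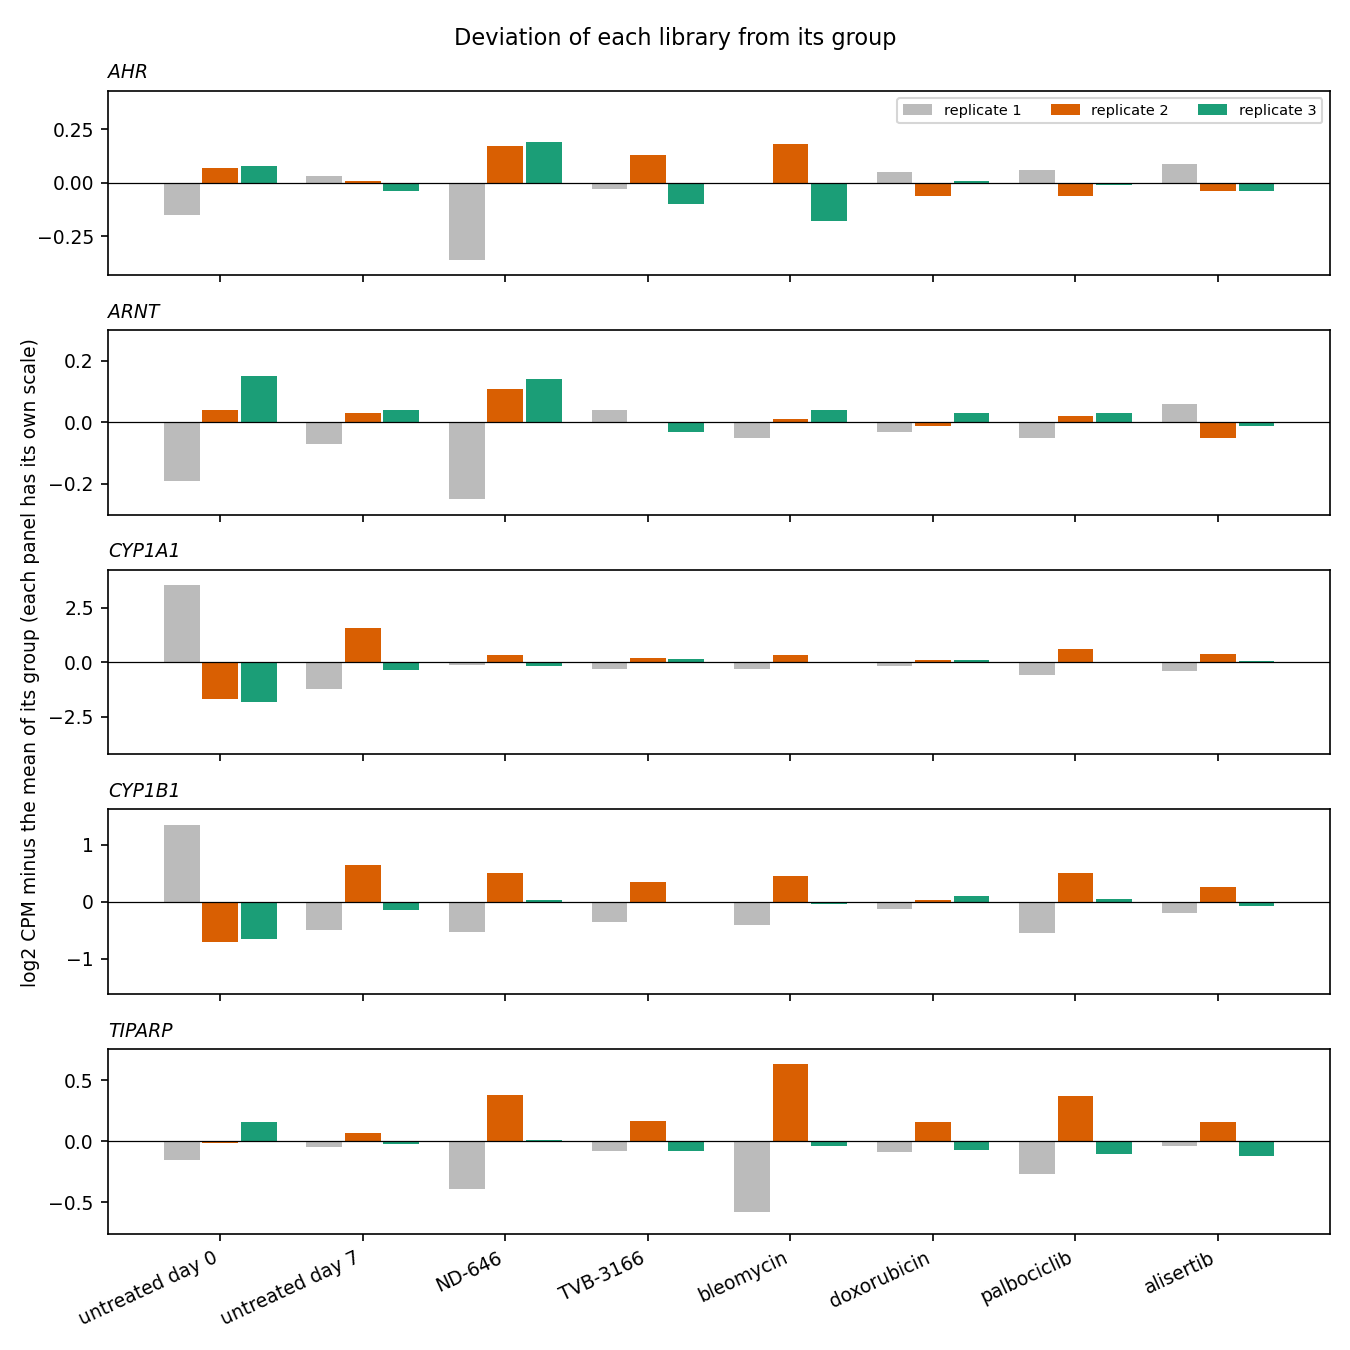
Log2 CPM of each library minus the mean of its group, with a panel for each gene on its own scale and bars for replicates 1, 2, and 3. CYP1A1 and CYP1B1 have the same highest library in 8 of 8 groups, with deviations of 3.53 and 1.35 in untreated day 0 replicate 1 and of 1.57 and 0.64 in untreated day 7 replicate 2.

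These deviations were described over 24 libraries, which share 8 group means and differ in depth, so no p-value is given. The deviations of CYP1A1 and CYP1B1 had a Pearson's r of 0.915 (Spearman's rho 0.938), the highest of 12461 genes set against CYP1A1, and 0.865 without day 0 replicates 1 and 3. The next genes were HGD with r = 0.870, PLD1 with 0.863, GPRC5C with 0.843, and BEND6 with 0.814, which fell to 0.626, 0.760, 0.490, and 0.697 without those libraries. CYP1A1 with TIPARP had r = 0.0834, with AHR -0.268, and with ARNT -0.398. Over the levels themselves, the genes most like CYP1A1 were TXNRD1, thioredoxin reductase, with r = 0.909 (rho 0.935), CYP1B1 with 0.901 (rho 0.856), and MARCHF9 with 0.889 (rho 0.791). TXNRD1 was at 829.9 ± 15.4 CPM at day 0, 1303 ± 24 CPM with TVB-3166, and 2087 ± 206 CPM with palbociclib. Without day 0 replicates 2 and 3 these r values were 0.957, 0.797, and 0.786. CYP1B1 was most like GCLM, a subunit of the enzyme that starts glutathione synthesis, with r = 0.923, then TRIM16L with 0.913 and CA12, a carbonic anhydrase, with 0.904. AHR was most like RNF152 with r = 0.956, RAB11FIP1 with 0.952, and IRF2BP2 with 0.948. TIPARP was most like FBXO34 with r = 0.947, CLINT1 with 0.944, and B3GNT7 with 0.937. ARNT was most like WDFY1 with r = 0.876, KLF9 with 0.779, and PFKFB2 with 0.763.

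Against day 0, genes of the complex that holds AHR were called in both directions in TIS cells. In the list of the AHR complex and its repressor, which includes AHR and ARNT, 8 of 8 genes were tested, and against day 0 from 2 to 4 were called higher and from 2 to 3 lower in each TIS group. The medians of the list ran from -0.17 to 0.53 on the log2 scale, against -0.01 to 0.02 over all genes. Of all genes, 18.8% were called lower than at day 0 with ND-646, 27.7% with TVB-3166, 25.3% with bleomycin, 24.8% with doxorubicin, 27.2% with palbociclib, and 19.6% with alisertib, and 17.1%, 26.1%, 23.2%, 21.5%, 22.9%, and 9.49% lower than at day 7. HSP90AA1 and PTGES3, the HSP90 alpha chaperone and its co-chaperone p23, fell in 6 of 6 TIS groups against day 0, with log2 fold changes of -0.86 to -0.44 and -0.58 to -0.50, and HSP90AB1 fell in 5 of 6. Against day 7, PTGES3 fell in 5 of 6 and both HSP90 genes in 1 of 6. With a library left out, the day 0 calls were lost at least once in 4 of 6 groups for HSP90AA1, 4 of 5 for HSP90AB1, and 1 of 6 (ND-646) for PTGES3, and both HSP90 calls with TVB-3166 held. AHRR, the repressor and itself a target, rose in 6 of 6 against day 0 (0.83 to 1.39) and in 1 of 6 against day 7. Untreated day 7 cells were themselves 0.84 ± 0.15 above day 0 (adjusted p = 0.0474), where 0.389% of all genes were called higher, and this call was lost in 5 of 6 fits with a library left out, all but that without day 0 replicate 1, with adjusted p-values of up to 0.204. The AHRR call with ND-646 against day 0 was also lost in 5 of 6 such fits, all but that without ND-646 replicate 1. Its level was 18.6 ± 2.11 CPM at day 0, 33.2 ± 6.25 CPM at day 7, and 48.5 ± 4.03 CPM with doxorubicin, the group that passed against both. ARNT2, a relative of ARNT, was at 0.548 to 2.19 CPM in the group means and had the largest called change of the list against day 7 with bleomycin (1.53), ND-646 (1.33), and doxorubicin (0.83), and SRC, a tyrosine kinase, had it with palbociclib (0.62). The ARNT2 call with ND-646 was lost in 5 of 6 fits with a library left out and that with doxorubicin in 4 of 6.

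Of 12 other genes listed as AHR targets, AHRR among them, 8 were in the table, and more than 4 were called higher than at day 0 in each TIS group. Against day 0, 8 of 8 tested were called higher with bleomycin and with doxorubicin, 7 of 8 with palbociclib, 6 of 8 with ND-646, 6 of 7 with TVB-3166, and 5 of 8 with alisertib, and 0 were called lower. The medians of the log2 fold changes were 0.71 to 1.21. Against day 7, 3 of 8 were called higher with alisertib, 4 with TVB-3166, 5 with bleomycin, 6 with ND-646, 6 with palbociclib, and 7 with doxorubicin, with medians of 0.31 to 0.87, and 1 was called lower with TVB-3166 and 1 with alisertib. Of all genes tested, 17.7% to 27.4% were called higher against day 0 and 9.55% to 25.4% against day 7 in the TIS groups. NQO1, a quinone reductase, rose in 6 of 6 against day 0 and in 4 of 6 against day 7, from 421 ± 91.1 CPM at day 0 to 1271 ± 157 CPM with ND-646. SLC7A5, the large amino acid transporter, rose in 6 of 6 and 5 of 6, and NEDD9, a scaffold of adhesion signalling, in 5 of 6 and 6 of 6. STC2, a secreted glycoprotein, rose in 5 of 6 against day 0, and against day 7 it rose with ND-646 (0.70) and fell with alisertib (-0.50). These STC2 calls against day 7 were lost in 3 of 6 and 4 of 6 fits with a library left out. Between the inhibitors of fatty acid synthesis, SLC7A5 was the only target of the list that passed, lower with TVB-3166 at -0.99 ± 0.14 (adjusted p = 0.0404), as were 0.198% of all genes, and this call was lost in 5 of 6 fits with a library left out, all but that without ND-646 replicate 1, with adjusted p-values of up to 0.236.

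Both CYP1A2, the neighbour and close relative of CYP1A1, and UGT1A6, a glucuronosyltransferase, were at low levels. CYP1A2 was at 0.462 ± 0.594 CPM at day 0, 1.30 ± 1.08 at day 7, 0.574 ± 0.0615 with ND-646, and 0.307 ± 0.0376 with TVB-3166, and at 3.04 ± 0.287 with alisertib, 4.04 ± 0.381 with bleomycin, 5.38 ± 1.29 with palbociclib, and 7.73 ± 1.10 with doxorubicin. The last 4 groups rose against day 0, by 2.63 to 3.98 on the log2 scale. The day 0 libraries ranged from 0.064 to 1.14 CPM, and these calls held with each library left out. Against day 7, CYP1A2 rose with bleomycin (1.67), doxorubicin (2.63), and palbociclib (2.09) and fell with TVB-3166 (-2.03 ± 0.62, adjusted p = 0.0168). The fall was lost without untreated day 7 replicate 2 or TVB-3166 replicate 3, and the rise with bleomycin without untreated day 7 replicate 3 or bleomycin replicate 3. ND-646 cells, which had 1001 CPM of CYP1A1, were at -1.16 ± 0.63 for CYP1A2 against day 7 (adjusted p = 0.188). UGT1A6 rose in 5 of 6 TIS groups against day 0 and in 6 of 6 against day 7, most with doxorubicin at 3.55 ± 0.27, from 0.843 ± 0.224 CPM at day 7 to 9.62 ± 2.85 CPM. Its day 0 libraries ranged from 0.127 to 1.81 CPM, and 2 of the 5 day 0 calls were lost at least once with a library left out. UGT1A6 shares exons with the other UGT1A genes, and CYP1A2 resembles CYP1A1, so reads of both are uncertain where the counting could split them.

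**Figure D5:**
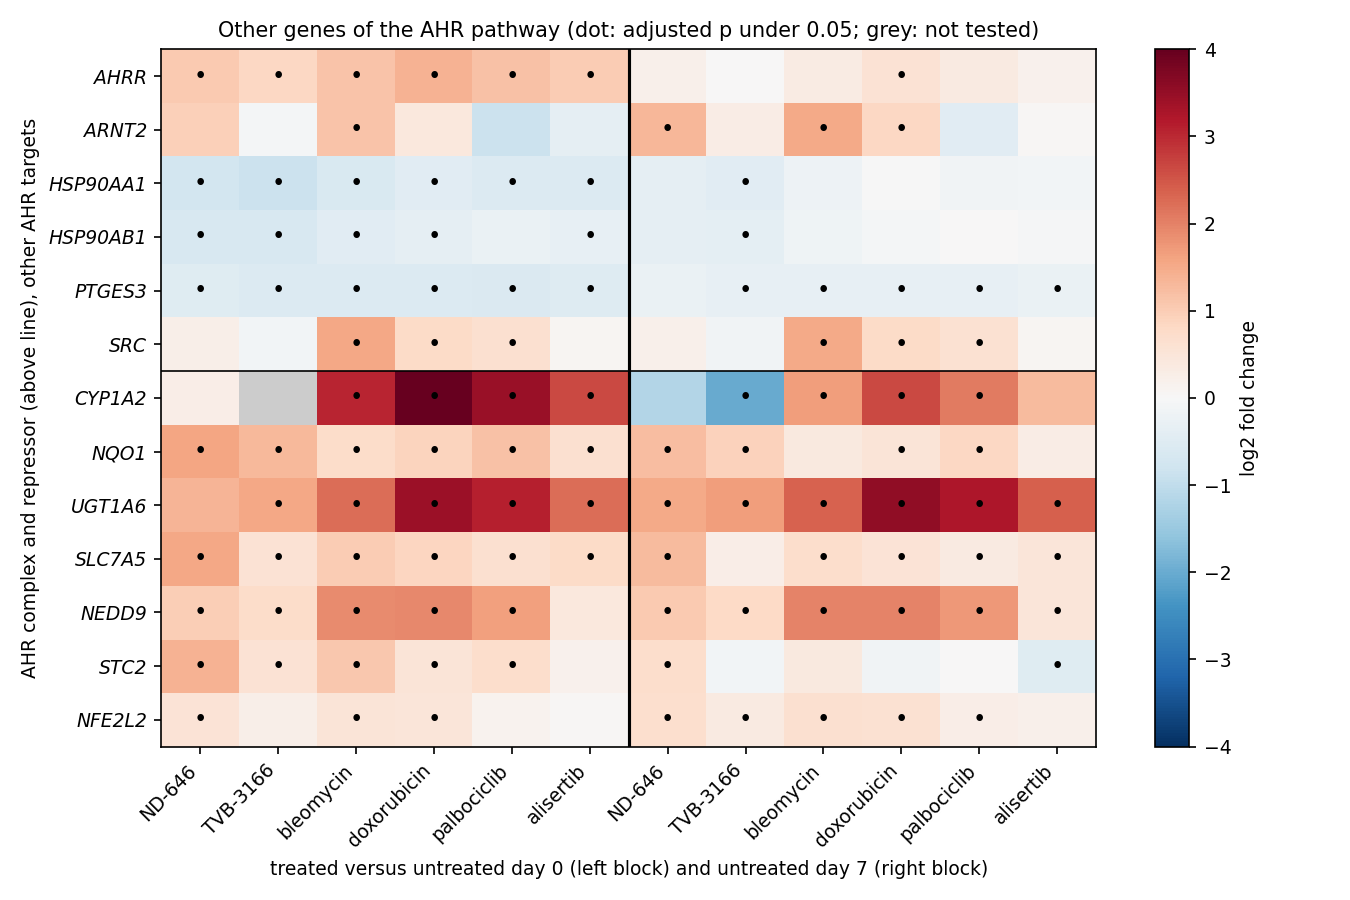
Log2 fold changes of the other genes of the AHR complex (above the line) and other AHR targets (below it) in the 6 TIS groups, against untreated day 0 cells in the left block and day 7 cells in the right. Red is higher and blue lower in TIS cells, a dot marks an adjusted p-value under 0.05, and grey was not tested. HSP90AA1 and PTGES3 are blue with dots in all 6 columns on the left, and CYP1A2 is blue with TVB-3166 on the right at -2.03.

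Of 13 tryptophan and kynurenine enzymes, which make or remove natural AHR ligands, 10 were tested, and 2 to 4 were called higher and 1 to 2 lower against day 0 in each TIS group, with medians of -0.27 to 0.36. Of all genes tested, 17.7% to 27.4% were called higher and 18.8% to 27.7% lower against day 0 in the TIS groups. KMO, which oxidises kynurenine, rose in 6 of 6 against both controls, from 6.94 ± 0.336 CPM at day 0 and 8.39 ± 0.518 at day 7 to between 18.5 ± 1.5 with alisertib and 51.6 ± 13.6 with ND-646. ALDH3A2, an aldehyde dehydrogenase, rose in 4 of 6 against day 0, of which the calls with alisertib and bleomycin were lost in 5 of 6 and 4 of 6 fits with a library left out, and MAOA, monoamine oxidase A, had the largest called change against day 7 with doxorubicin (1.79). Of 14 other partners of ARNT and hypoxia genes 9 were tested, and against day 0 from 2 to 5 were called higher and from 0 to 2 lower in each TIS group, with medians of 0.30 to 0.85. EPAS1, which encodes HIF-2 alpha, and VEGFA, a target of the hypoxia factors, rose in 6 of 6 against both controls. HIF1A rose in 5 of 6 against day 0 and 4 of 6 against day 7. NDRG1, another hypoxia target, fell in 5 of 6 against day 0, whereas against day 7 it fell in 3 of 6 and rose in 1 of 6. Untreated cells had 371 ± 64.5 CPM of NDRG1 at day 0 and 244 ± 21.4 CPM at day 7. ADM, adrenomedullin, had the largest called changes of this list against day 7 with doxorubicin (2.55) and bleomycin (2.38).

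Among the 8 electron donors and haem enzymes that microsomal P450 enzymes depend on, 1 to 2 were called higher and 1 to 5 lower against day 0. The shares over all genes tested were 17.7% to 27.4% higher and 18.8% to 27.7% lower. HMOX1, the inducible haem oxygenase, rose in 5 of 6 against both controls, by up to 2.46 against day 0 with doxorubicin, and was at 0.26 ± 0.29 with palbociclib (adjusted p = 0.466). HMOX2, its constitutive relative, fell in 5 of 6 against day 0 and in 1 of 6 against day 7. PGRMC1, a haem-binding partner of P450 enzymes, fell in 6 of 6 and 4 of 6. In untreated cells, HMOX2 was at 69.2 ± 4.19 CPM at day 0 and 54.7 ± 4.5 CPM at day 7. PGRMC1 was at 308 ± 45.5 and 232 ± 7.64 CPM in the same cells. CYB5A, cytochrome b5, had the largest called change against day 7 with palbociclib (0.45). Of 18 other P450 enzymes 10 were in the table, and the medians of the list were -0.19 to 0.30 against day 0. CYP4X1 rose in 4 of 6 against each control and CYP4B1 fell in 4 of 6 against day 0. With a library left out, the day 0 calls were lost at least once in 4 of 4 groups for CYP4X1 and in 3 of 4 for CYP4B1, and the day 7 calls of CYP4X1 held. CYP24A1, which inactivates vitamin D, was the most changed of the list against day 7 with bleomycin (3.55) and palbociclib (2.44), CYP4Z1 with doxorubicin (1.55), CYP4X1 with alisertib (1.23), CYP51A1, a cholesterol synthesis enzyme, with ND-646 (1.00), and CYP39A1, an oxysterol hydroxylase, with TVB-3166 (-1.39). CYP4Z1 was at 13.8 ± 8.01 CPM at day 0, 4.81 ± 0.813 at day 7, and 13.9 ± 2.41 with doxorubicin. Against day 0 it was called higher in 0 of 6 TIS groups and lower in 3. CYP39A1 was at low levels, 0.79 ± 0.135 CPM at day 7 and 0.3 ± 0.161 CPM with TVB-3166. Among the other genes named from the lists, every call of NEDD9, KMO, and EPAS1 against either control held with each library left out. At least 1 call was lost in such fits for NQO1, UGT1A6, SLC7A5, HIF1A, VEGFA, NDRG1, HMOX1, HMOX2, and PGRMC1, among them VEGFA with alisertib against day 7 in 5 of 6 fits.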

How the data were processed

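RNA-seq read counts of 24 SKBr3 libraries were used, with groups and replicates taken from the labels. The labels name a stranded mRNA kit and the methods a stranded kit for total RNA. The authors used HISAT2 for alignment to GRCh37, StringTie for assembly, and DESeq2 for comparisons. The deposited values are whole-number counts of reads for each gene, with no normalization. The counting program and its use of strand are not given in the sources used here. The table lists no count under 1, so a gene without reads in a library is not in it.

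Tests on the counts used edgeR 4.0.16 under R 4.3.3 (filterByExpr, TMM, glmQLFit, and glmQLFTest, 2-sided) in 14 pairwise comparisons of 3 against 3 libraries and over all 8 groups. P-values were adjusted by Benjamini-Hochberg over all genes, and genes under 0.05 were called. With 3 against 3 an exact permutation test cannot go below p = 0.1. Standard errors were derived from the test, as the absolute log2 fold change divided by the square root of its F statistic. Log2 CPM used a prior count of 2. Likeness was computed over genes with at least 10 counts in every library. Exon lengths and promoter sequence came from GRCh37.

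The members and lists were chosen with earlier results of these data known. A gene of the list of the AHR complex is not reported here and was left out of its counts. The genes named from the lists were those called the same way in at least 4 of 6 comparisons with day 0 and the largest called change per list and comparison with day 7, and 3 genes most like each member were named, with 5 more by the deviations of CYP1A1. Neither the labels nor the methods say what a replicate number marks. The numbers were taken to pair libraries where all 3 correlations of same-numbered deviations were over 0.1, which held in 7 comparisons: alisertib with day 0, ND-646, bleomycin, doxorubicin, palbociclib, and alisertib with day 7, and TVB-3166 with ND-646. Alternatives were DESeq2 1.42.0, RLE factors, no filter, other filters, all 24 libraries in 1 fit, the replicate number as a block, the study's threshold, and 84 fits leaving out a library. On counts simulated for ND-646 against day 0 over 13505 genes, edgeR recovered 51.5% of genes changed 2-fold and 97% of genes changed 4-fold.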

Additional observations from a re-analysis of the deposited data

How the results depend on the processing

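For ND-646, TVB-3166, bleomycin, doxorubicin, and palbociclib, 3 members (AHR, CYP1B1, and TIPARP) were called against day 0 and against day 7 with all libraries and with each library left out. At the study's threshold, a fold of 2 with a raw p-value under 0.05, the number of members called was 1 for palbociclib and 1 for alisertib against day 0, 1 for TVB-3166, 1 for palbociclib, and 0 for alisertib against day 7, and 1 for TVB-3166 against ND-646. AHR, but not CYP1B1 or TIPARP, also fell short of it with bleomycin and doxorubicin against both controls and with TVB-3166 against day 0. For alisertib against day 7 the number of members called was 1 with DESeq2 and 1 with all 24 libraries in 1 fit. For TVB-3166 against ND-646 it was 1 with DESeq2. With a library left out, it ran from 1 to 3 for alisertib against day 0, from 1 to 2 for alisertib against day 7, from 0 to 1 for day 7 against day 0, and from 0 to 3 for TVB-3166 against ND-646. In the F-test over the 8 groups the number of members called ran from 3 to 4. The 4, which include ARNT, were called without ND-646 replicate 1. The causes of these changes were not tested.

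With the replicate number as a block, 1 member (CYP1B1) was called for TVB-3166 against ND-646, and the block changed no other call of a member. The untested log2 fold changes of CYP1A1 against day 0 were larger under the block, at 7.75 with ND-646, 8.31 with doxorubicin, and 6.64 with alisertib. Among these, the numbers were taken to pair libraries only for alisertib. For TVB-3166 against ND-646 the block moved the number of all genes called from 98 to 310, and for alisertib against day 7 from 2627 to 4141. For day 7 against day 0, where the numbers were not taken to pair the libraries, it moved from 80 to 1263.

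The number of all genes called depended on the fit in other comparisons. With all 24 libraries in 1 fit it was 7878 for ND-646 against day 0 (5157 with 6 libraries), 7059 for ND-646 against day 7 (4692), 441 for day 7 against day 0 (80), 1141 for alisertib against day 7 (2627), and 1268 for TVB-3166 against ND-646 (98). DESeq2 called 1132 genes for day 7 against day 0 and 765 for TVB-3166 against ND-646, and without a filter edgeR called 0 and 32. At the study's threshold the numbers against day 0 were 2821 for ND-646, 2413 for TVB-3166, 2585 for bleomycin, 1783 for doxorubicin, 2292 for palbociclib, 1088 for alisertib, and 271 for untreated day 7 cells. Against day 7 they were 2379, 1839, 1952, 1214, 1547, and 451 for the same TIS groups, and 429 for TVB-3166 against ND-646. With a library left out, the numbers ran from 0 to 1518 for TVB-3166 against ND-646, from 0 to 94 for day 7 against day 0, from 2714 to 7618 for ND-646 and from 1062 to 2800 for alisertib against day 7, and from 3128 to 5205 for alisertib against day 0. The highest numbers for ND-646 against TVB-3166 and day 7 were without ND-646 replicate 1, and the shares of all genes called rest on these numbers. Depth was not varied.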
